A study of Mus musculus with 4 samples.

Results

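The 8 genes described here encode the receptors and the intracellular core of the gp130 cytokine pathway. They are the receptor genes Il6st, Il6ra, Osmr and Lifr, the kinase genes Jak1 and Jak2, the transcription factor gene Stat3 and the feedback inhibitor gene Socs3. They were chosen by name among the 32287 gene features of the matrices, and all 8 had UMIs (unique molecular identifiers, each counting 1 captured mRNA molecule) in both conditions. Gp130, the product of Il6st, is the shared signalling chain of the interleukin-6 family. It pairs with a second chain that sets which ligand is bound: the interleukin-6 receptor (Il6ra), the oncostatin M receptor (Osmr) or the leukaemia inhibitory factor receptor (Lifr). The paired receptor activates Janus kinases, which phosphorylate STAT3, and STAT3 then enters the nucleus and switches on genes including Socs3, whose product inhibits the receptor and its kinases. In the spinal cord, STAT3 signalling is known for its part in astrocyte reactivity and in forming the border around a lesion.

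The cells came from Cx30-tdTomato mice, in which a Cre recombinase expressed under Cx30, a gap junction gene of astrocytes, switches on the red reporter tdTomato from the R26R locus after tamoxifen. Mice were 8 to 12 weeks old and received an intravenous pool of enhancer reporter viruses (AAV) in both groups. The injured group was sampled at day 3 after a spinal cord injury, as a 5 mm segment around the lesion, and the uninjured group at the same level of intact cords. Sorted tdTomato-positive whole cells were pooled from 1 to 2 animals of each sex, and each group gave 1 gene expression library, so no difference below has a replicate check and no p-value is given. Intervals are 95% intervals of the UMI counts and cover counting error only.

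The question asked of these genes is where in the sorted cells the pathway was expressed and how its levels differed between injured and uninjured cord. After filtering, 879 injured cells with a median of 6816 gene UMIs and 4159 uninjured cells with a median of 3343 remained, and 7 barcode sequences occurred in both files. Clusters were named from marker genes, which gave 6 classes: astrocyte-like (389 injured and 3156 uninjured cells), ependymal-like (135 and 31), microglia-like (129 and 32), endothelial-like (69 and 26), fibroblast-like (59 and 97) and oligodendrocyte precursor-like (OPC-like, 54 and 16). The sort label names tdTomato-positive cells, yet these other classes carried their own markers at high levels, for example 11561 CPM of the 7 microglia markers in injured microglia-like cells. CPM are UMIs of a gene per 1000000 gene UMIs of a class. OPC-like cells had fewer than 20 uninjured cells and were left out of the comparison of conditions. A further 44 injured and 801 uninjured cells in 2 clusters had astrocyte markers but neuronal genes (Nefl, Snap25) among their leading genes and stayed unnamed. The libraries differed in sex markers. The injured library had 250 cells scored female and 315 scored male, and the uninjured library had 2 and 2770, against labels of both sexes in each. Values for male cells alone are therefore given with the results where both classes had at least 20 such cells, which held for astrocyte-like and ependymal-like cells only.

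Socs3 was the only one of the 8 genes with a STAT site in its promoter window, and its sequence is shown because the inhibitor is a classical STAT3 target. The motif searched was TTCNNNGAA, which reads the same on both strands, in windows of 250 bases before to 50 bases after each RefSeq start. It occurred in 8.30% of all 32851 windows, so 1 gene of 8 is close to this background. The match began 154 bases upstream of the RefSeq start of Socs3, at chr11:117969512-117969520 on GRCm38.p6. In the GENCODE M21 annotation the Socs3 gene starts further upstream, and this position lay inside it and overlapped 0 exons. The stretch printed, from RefSeq, is chr11:117969452-117969580 on the minus strand, 5′ to 3′, with the motif in capitals.
Socs3 promoter: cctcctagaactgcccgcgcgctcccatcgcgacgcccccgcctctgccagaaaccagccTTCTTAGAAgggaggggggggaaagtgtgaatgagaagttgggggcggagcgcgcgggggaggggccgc
A match is a description of the sequence and was not linked to binding in these data. The other 7 genes had no match in their windows.

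The genes lie apart from each other in the mouse genome (GRCm38, GENCODE M21). Il6st is on chromosome 13 (112464070 to 112510086, plus strand) and Il6ra on chromosome 3 (89864059 to 89913196, minus). Osmr (6813577 to 6874969, minus) and Lifr (7090614 to 7197489, plus) are both on chromosome 15. Stat3 (100885098 to 100939540, minus) and Socs3 (117966079 to 117970047, minus) are both on chromosome 11. Jak1 is on chromosome 4 (101152367 to 101265282, minus) and Jak2 on chromosome 19 (29251828 to 29313080, plus). Stat3 overlaps Stat5a on the other strand, Il6ra overlaps an antisense gene (Gm42809), and Jak1 overlaps Raver2 and Gm24468 on the other strand and the pseudogene Gm12785 on its own. Whether the counting used strand is not given in the sources used here, so reads in the overlap of Jak1 and Gm12785 are uncertain, and those in the other overlaps are so only if strand was not used.

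Astrocyte-like cells of the injured cord had higher levels of 3 receptor genes, Osmr, Il6ra and Il6st, and a lower level of Lifr. Osmr, whose product pairs with gp130 to bind oncostatin M, had 105 UMIs in 63 of the 389 cells after injury, a level of 47.6 CPM (38.9 to 57.6). In uninjured cells it had 10 UMIs in 9 of 3156 cells, a level of 0.857 CPM (0.411 to 1.58). The ratio of the levels was 55.5 (29.0 to 119), and the log2 ratio with 1 CPM added to each side was 4.71 (4.16 to 5.17). This log2 ratio with 1 CPM added, injured over uninjured, is the measure used below, and it understates the change of genes near 0. In male cells alone it was 4.29 for Osmr. The share of astrocyte-like cells with an Osmr UMI was 16.2% (12.7 to 20.2%) after injury and 0.285% (0.130 to 0.541%) without it. Microglia-like cells, which had 2 Osmr UMIs in the injured library, had a share of 1.55% there at a median of 13386 gene UMIs per cell, against 3924 in injured astrocyte-like cells. With each cell thinned to 1000 gene UMIs, the astrocyte-like shares were 4.38% and 0.0865%, and 30 injured and 70 uninjured shallower cells were left out.

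Il6ra, the chain that binds interleukin-6 itself, was near 0 in uninjured astrocyte-like cells, with 3 UMIs (0.257 CPM, 0.0530 to 0.752). Injured astrocyte-like cells had 25 UMIs in 16 cells (11.3 CPM, 7.34 to 16.7). The ratio was 44.1 (13.5 to 228), and the log2 ratio was 3.29 (2.59 to 3.67) in all and 3.53 in male cells. Il6st was present in both conditions, at 74.8 CPM (63.8 to 87.1, 165 UMIs) after injury and 38.7 CPM (35.2 to 42.4, 451 UMIs) without it. Its log2 ratio was 0.93 (0.67 to 1.19), just inside 2-fold, and 0.90 in male cells, and with no filter on cells it reached 2-fold. The levels of the shared chain did not overlap in their intervals, but the difference was the smallest of the 3 receptor genes that were higher.

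Lifr, whose product serves leukaemia inhibitory factor and ciliary neurotrophic factor, went the other way. It had 99.3 CPM (86.6 to 113, 219 UMIs) in injured and 131 CPM (125 to 138, 1532 UMIs) in uninjured astrocyte-like cells, a log2 ratio of −0.40 (−0.61 to −0.20) and −0.37 in male cells. This is a difference under 1.5-fold. In the 73 injured astrocyte-like cells outside the cluster led by Gfap, Lcn2 and Timp1, the log2 ratio of Lifr was 0.10. In cluster 6, described below, Lifr was 87.0 CPM (48.7 to 143, 15 UMIs) in injured and 125.5 CPM (114 to 138) in uninjured cells. In cluster 4 it was 229 CPM (138 to 358, 19 UMIs) and 148 CPM (134 to 164). The intervals overlapped in both, so its direction outside the leading cluster was not detectable at this depth.

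The kinase genes were slightly lower or not distinguishable. Jak1, a kinase of all gp130 receptors, had 128 CPM (114 to 144) in injured and 174 CPM (167 to 182) in uninjured astrocyte-like cells, a log2 ratio of −0.44 (−0.62 to −0.26) and −0.32 in male cells. Jak2, which also attaches to gp130, had 24.9 CPM (18.8 to 32.5, 55 UMIs) and 29.8 CPM (26.8 to 33.1, 348 UMIs). Its log2 ratio of −0.25 had an interval that spans 0 (−0.67 to 0.15), so a difference of Jak2 was not detectable at this depth. Among the 261 injured and 1835 uninjured cells of any class with a UMI of Aldh1l1, an astrocyte gene, the log2 ratio of Jak2 was 0.50. The sign differed there, but this set is not limited to astrocyte-like cells, so it does not test the sign within that class.

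Stat3 and Socs3, the effector and its inhibitor, were both higher after injury. Stat3 had 105.7 CPM (92.5 to 120.1, 233 UMIs) in injured and 38.3 CPM (34.8 to 42.0, 447 UMIs) in uninjured astrocyte-like cells, a log2 ratio of 1.44 (1.21 to 1.67) and 1.81 in male cells. Socs3 had 21.3 CPM (15.7 to 28.3, 47 UMIs in 31 cells) in injured and 1.11 CPM (0.593 to 1.91, 13 UMIs in 13 cells) in uninjured cells. Its log2 ratio was 3.40 (2.78 to 3.94), a ratio of levels of 19.1 (10.2 to 38.5), and 2.70 in male cells. Of the 47 injured Socs3 UMIs, 9 came from 1 cell. Without the richest cell of each library the log2 ratio was 3.18. Some immediate early genes were also higher in injured astrocyte-like cells. Fos was at 56.7 against 17.1 CPM, Junb at 44.4 against 7.37 CPM and Egr1 at 15.4 against 2.66 CPM. Jun was at 98.4 against 50.1 CPM and Ier2 at 7.26 against 4.11 CPM. Dusp1 went the other way, at 6.80 CPM after injury against 24.1 CPM without it. The part of these genes in the Socs3 value was not tested.

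Genes with a mean of the injured and uninjured levels of at least 20 CPM were counted as higher or lower when they differed by at least 2-fold. Of the 8 genes, 6 passed this level in astrocyte-like cells, and Stat3 and Osmr were higher and none lower. Over all 7056 genes that passed, 13% were higher and 7.14% lower. Osmr passed through its injured level alone, and a gene that does so had to differ. Il6ra and Socs3 did not pass. With no level filter, 4 of the 8 genes were at least 2-fold higher (Il6ra, Osmr, Stat3, Socs3) and none lower. The share over all genes with no level filter is not given here, so this count has no matching background.

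**Figure D1:**
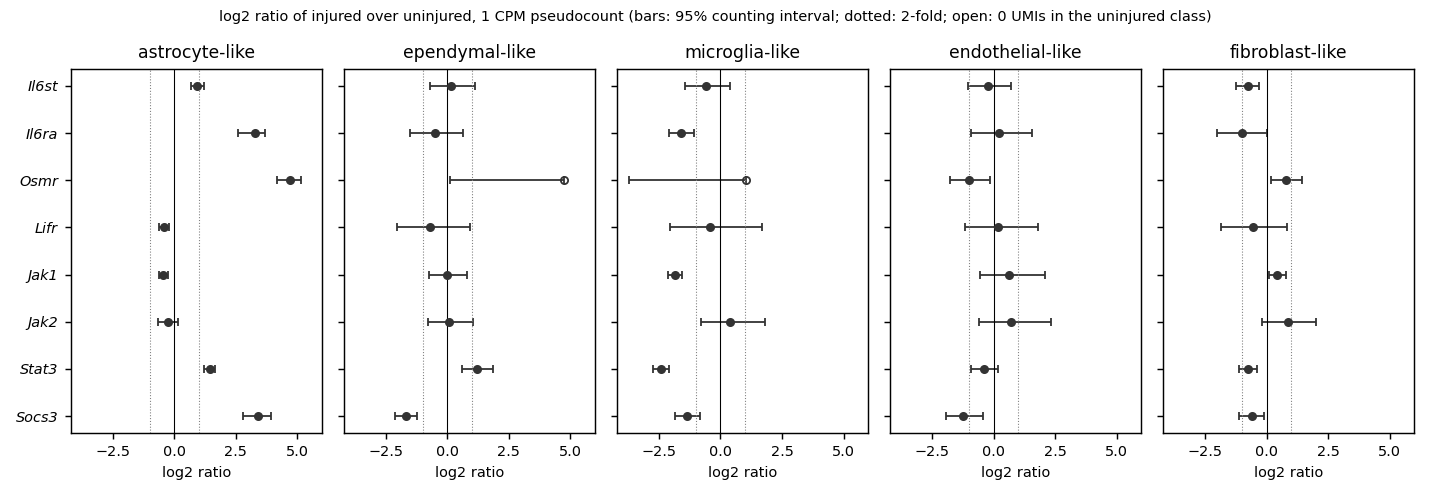
Log2 ratio of injured over uninjured CPM with 1 CPM added (x axis) for the 8 genes (rows) in 5 cell classes (panels); points are the values of 1 library per condition, bars are 95% counting intervals, dotted lines mark 2-fold, and open points had 0 UMIs in the uninjured class. In astrocyte-like cells Osmr (4.71), Socs3 (3.40), Il6ra (3.29) and Stat3 (1.44) lie to the right of 2-fold, whereas in microglia-like cells Stat3 (−2.41), Jak1 (−1.85), Il6ra (−1.59) and Socs3 (−1.36) lie to the left.

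Markers of other cells were present in astrocyte-like cells at low levels. The 7 microglia markers summed to 132 CPM in the injured class and 94.0 CPM in the uninjured class, which was 1.15% and 0.986% of their sum in microglia-like cells of the same library, with Tmem119 at 0 in both and Csf1r at 0 in the injured library. The 7 ependymal markers summed to 114 and 28.5 CPM, which was 5.26% and 0.547% of their sum in ependymal-like cells, with Ccdc153, Tmem212 and Pifo at 0 in the injured library. Multiplying these percentages by the level of each gene in the other class, and adding all classes with a value, gave 3.05 CPM for Osmr against the 47.6 measured in injured astrocyte-like cells. The same sum was 3.70 CPM for Il6ra against 11.3 measured, 11.8 CPM for Socs3 against 21.3 and 30.0 CPM for Stat3 against 105.7. In uninjured cells the sum exceeded what was measured for Il6ra (3.75 against 0.257 CPM) and Socs3 (5.66 against 1.11 CPM). OPC markers also differed, at 54.9 and 2.06 CPM. Neutrophil markers had 1.81 CPM (4 UMIs) in the injured class and 0.600 CPM (7 UMIs) in the uninjured one. Monocyte or macrophage markers had 12.7 and 1.54 CPM, neuron markers 198 and 119 CPM and oligodendrocyte markers 203 and 217 CPM. Mural markers had 30.4 and 43.0 CPM and T cell markers 4.08 and 6.77 CPM. Apart from OPC markers, these lists had no class of their own here and are not in the sums above. Without the 210 injured and 1068 uninjured cells that had any microglia or ependymal marker UMI, the log2 ratios were 4.24 for Osmr, 3.76 for Il6ra, 2.67 for Socs3 and 1.07 for Stat3.

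The injured and uninjured astrocyte-like cells came mostly from different clusters. Of the 389 injured cells, 316 were in cluster 3, whose leading genes were Gfap, Lcn2 and Timp1 and which had 7 uninjured cells, and clusters 4, 5, 6 and 11 held 1038, 490, 862 and 759 of the uninjured cells. Stat3, Osmr and Socs3 were among the variable genes used for clustering. Within the uninjured clusters the levels were narrow. Stat3 ran from 36.0 to 42.5 CPM, Lifr from 125 to 148 CPM, Jak1 from 156 to 190 CPM and Osmr from 0.567 to 1.09 CPM.

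Injured cells in cluster 6, which was mostly uninjured, had Stat3 and Osmr levels whose intervals overlapped those of cluster 3. In cluster 6, Stat3 was 133 CPM (84.5 to 200.1, 23 UMIs) in 30 injured cells and 37.0 CPM (31.0 to 43.9) in 862 uninjured cells, and Osmr was 46.4 CPM (20.03 to 91.4, 8 UMIs) against 0.829 CPM (0.171 to 2.42). In cluster 3 the injured levels were 101 CPM (87.6 to 116) for Stat3 and 48.1 CPM (38.8 to 58.9) for Osmr. The 39 injured cells of cluster 4 had 11 Stat3 UMIs (133 CPM, 66.3 to 238) and 1 Osmr UMI, too few to place Osmr. Socs3 had few UMIs outside cluster 3. Of its 47 injured astrocyte-like UMIs, 46 lay in cluster 3 (23.8 CPM), and cluster 6 had 0, where 3 UMIs would have been 17.4 CPM. Its intervals in clusters 6 (up to 21.4 CPM) and 3 (17.4 to 31.7 CPM) overlapped, so a difference of Socs3 between them was not detectable at this depth. For all 73 injured cells outside cluster 3, the log2 ratio was 1.81 for Stat3, 4.61 for Osmr, 2.74 for Il6ra and 1.15 for Socs3. Of the 25 injured Il6ra UMIs 23 lay in cluster 3, as did 46 of the 47 of Socs3. The Il6ra and Socs3 values outside it therefore rest on too few UMIs to place either gene.

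**Figure D2:**
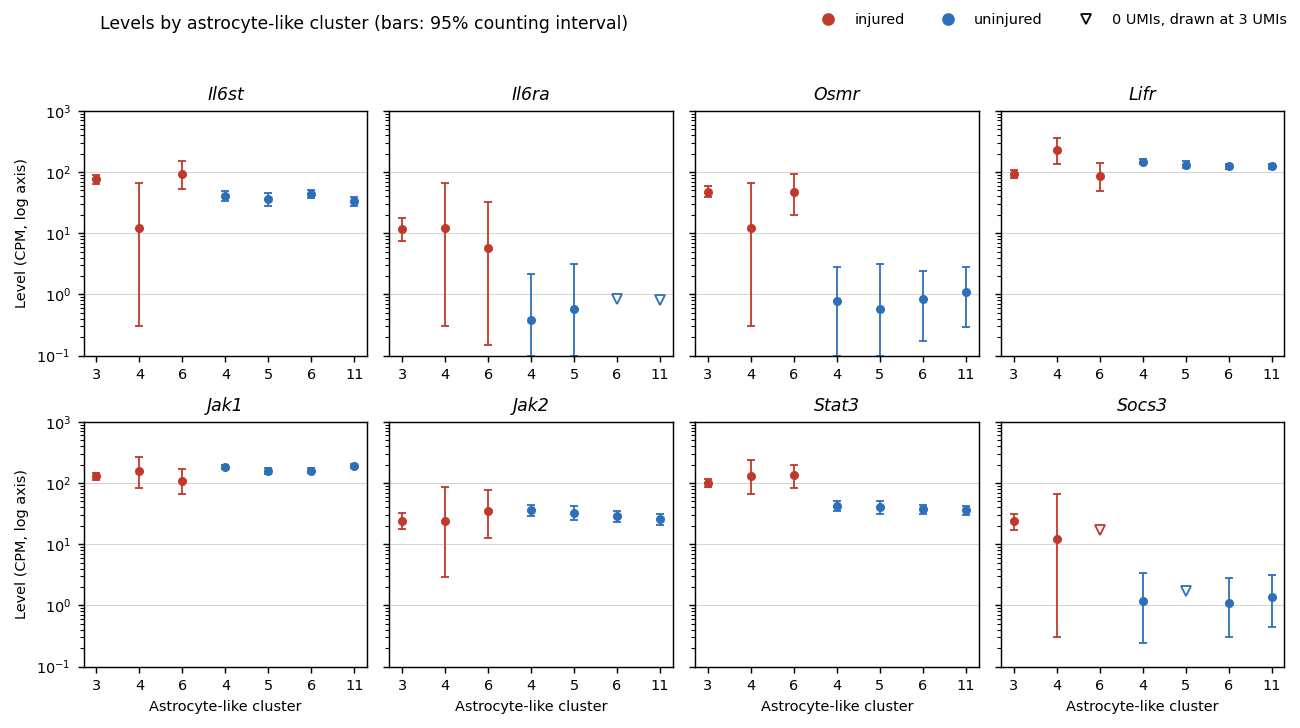
Level (CPM, log axis) of each gene in astrocyte-like clusters, with injured cells of clusters 3, 4 and 6 first (red) and uninjured cells of clusters 4, 5, 6 and 11 after them (blue); groups of fewer than 20 cells are not drawn, bars are 95% counting intervals cut at 0.1 CPM, and open triangles mark 0 UMIs, drawn at the level of 3 UMIs. Stat3 is above 100 CPM in the 3 injured groups and between 36.0 and 42.5 CPM in the uninjured ones.

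Within injured astrocyte-like cells, Osmr and Socs3 were higher in cells that carried a reactive marker. A UMI of Lcn2 or Timp1, a secreted lipocalin and a metalloproteinase inhibitor, was present in 175 cells and absent in 214. Osmr was 58.7 CPM in the former and 31.9 CPM in the latter, a ratio of 1.84 (1.19 to 2.93), and Socs3 was 27.8 and 12.1 CPM, a ratio of 2.30 (1.15 to 5.01). The ratios of the other 6 genes had intervals that include 1, for example 1.04 for Stat3 (0.794 to 1.37). In the 63 cells with an Osmr UMI, Socs3 was 32.7 CPM against 16.9 CPM in the other 326, a ratio of 1.93 (1.03 to 3.58). These Socs3 values rest on 36 and 11 UMIs in the first split and 20 and 27 in the second. As 9 of the 47 UMIs came from 1 cell, the counting intervals are too narrow, and the ratios without that cell are not given here. Cells with either kind of UMI were deeper, with medians of 4838 against 3090.5 gene UMIs for the first split and 7357 against 3696.5 for the second, and the part of depth in these ratios was not tested.

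Microglia-like cells had lower levels of 4 genes in the injured library, of the 7 that passed the level filter, and none was higher. Stat3 was 174 CPM (156 to 194, 329 UMIs) in 129 injured cells and 928 CPM (762 to 1119, 109 UMIs) in 32 uninjured cells, a log2 ratio of −2.41 (−2.72 to −2.08). Jak1 was 276 and 996 CPM, a log2 ratio of −1.85 (−2.14 to −1.54). Il6ra was 109 CPM (95.02 to 125) and 332 CPM (236 to 454), −1.59 (−2.09 to −1.06), and Socs3 was 126 and 323 CPM, −1.36 (−1.85 to −0.82). Over the 6151 genes that passed the level filter in this class, 11.1% were higher and 20.9% lower, and the median log2 ratio of all genes was −0.22. Immediate early genes, which cell isolation is known to induce, moved the same way. Fos was 682 CPM in injured and 2077 CPM in uninjured microglia-like cells, Junb 714 and 2392 CPM, and Egr1 156 and 2426 CPM. Their part in the result was not tested. The uninjured Stat3 UMIs came from 20 of 32 cells, with 21 in the richest cell. The class was 1 cluster whose leading gene, Lyz2, is also a marker of monocytes and macrophages. Whether its macrophage content differed between the conditions was not tested. Median depth was 13386 gene UMIs per cell in the injured class and 3064.5 in the uninjured one, and the part of depth was not tested.

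Ependymal-like cells, which line the central canal, had higher Stat3 and lower Socs3 in the injured library. Stat3 was 332 CPM (305 to 361, 563 UMIs) in 135 injured and 145 CPM (92.0 to 218, 23 UMIs) in 31 uninjured cells, a log2 ratio of 1.19 (0.59 to 1.85) and 1.27 in male cells. Socs3 was 108 CPM (92.9 to 125, 183 UMIs) and 347 CPM (261 to 452, 55 UMIs), −1.67 (−2.11 to −1.21), but only −0.55 in the 62 injured and 22 uninjured male cells. In uninjured ependymal-like cells 16 of the 55 Socs3 UMIs came from 1 cell. Fos was also lower in the injured class, 1350 against 3047 CPM, and its part in the Socs3 value was not tested. Osmr had 44 UMIs (26.0 CPM) in injured and 0 in uninjured ependymal-like cells, at least 1.37-fold higher with the uninjured class set at 3 UMIs. Of the 7 genes that passed the level filter Stat3 was thus the only one past 2-fold upwards and Socs3 the only one downwards, while over 7435 genes 7.02% were higher and 11.7% lower.

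In the vascular and connective tissue classes the differences were smaller. In endothelial-like cells Socs3 was 84.4 CPM (64.9 to 108, 63 UMIs) in injured and 198 CPM (123 to 303, 21 UMIs) in uninjured cells, −1.22 (−1.95 to −0.44), and it was the only one of the 8 genes past 2-fold with 1 CPM added, against a background of 7.64% higher and 13.1% lower over 6781 genes. Without the richest Socs3 cell of each library the value was −0.73. Osmr was 84.4 CPM (63 UMIs) and 169.8 CPM (18 UMIs, 12 of them in 1 cell), a ratio of 0.497 (0.291 to 0.892), which is past 2-fold without the added 1 CPM. Its log2 ratio turned to 0.30 without the richest cell of each library. Junb was 1170 CPM in injured and 1613 CPM in uninjured endothelial-like cells, Jun 2537 and 4226 CPM, and Fos 2375 and 2207 CPM, and their part in these values was not tested. In fibroblast-like cells none of the 7 genes that passed the level filter reached 2-fold with 1 CPM added, against 11.0% higher and 10.4% lower over 7211 genes. Osmr was 144 CPM (119 to 173) and 83.7 CPM (55.6 to 121) there, a log2 ratio of 0.78 (0.18 to 1.42), and Jak1 was 376 and 278 CPM, 0.43 (0.10 to 0.78). Stat3 (189 and 320 CPM, −0.76), Il6st (115 and 197 CPM, −0.78) and Socs3 (111 and 170 CPM, −0.61) were lower in the injured fibroblast-like cells, with intervals below 0. Il6ra, at 23.4 and 47.8 CPM (19 and 16 UMIs), had a ratio of 0.490 (0.239 to 1.02), past 2-fold without the added 1 CPM, with an interval that includes 1. With no filter on cells, which left 96 injured fibroblast-like cells, the log2 ratios of Osmr and Jak1 were 0.01 and 0.02, and Il6ra (−1.44), Socs3 (−1.22), Lifr (−1.18) and Stat3 (−1.15) were past 2-fold.

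The order of classes differed from gene to gene. Lifr was highest in astrocyte-like cells in both libraries. In the injured library it was 99.3 CPM there and 53.6 CPM in endothelial-like cells, a ratio of 1.85 (1.32 to 2.66). In the uninjured library it was 131 and 47.2 CPM, a ratio of 2.78 (1.19 to 8.59). Il6ra was highest in microglia-like cells in both, at 109 CPM against 76.4 CPM in injured endothelial-like cells (ratio 1.43, 1.06 to 1.96) and 332 against 66.0 CPM in the uninjured library (ratio 5.03, 2.22 to 13.3). Astrocyte-like cells were last but one for Il6ra after injury, above OPC-like cells (1.87 CPM).

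Osmr was highest in stromal classes. In the injured library the order was fibroblast-like (144 CPM), endothelial-like (84.4 CPM), astrocyte-like (47.6 CPM), ependymal-like (26.0 CPM), OPC-like (12.2 CPM) and microglia-like cells (1.06 CPM), and each neighbour differed beyond its counting interval. In the uninjured library endothelial-like and fibroblast-like cells had 169.8 and 83.7 CPM, astrocyte-like cells 0.857 CPM and the other classes 0 UMIs. Injured astrocyte-like cells stood between the stromal classes and the remaining classes for this gene.

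Stat3 and Socs3 were lowest in astrocyte-like cells in both libraries. In the injured library Stat3 was 332 CPM in ependymal-like and 295 CPM in OPC-like cells, which did not differ beyond counting error, and 105.7 CPM in astrocyte-like cells, below microglia-like cells by a ratio of 1.65 (1.39 to 1.96). Socs3 lay between 84.4 and 126 CPM in the 5 other classes of the injured library. Neighbours in this order did not differ, but the intervals of microglia-like (110 to 143 CPM) and endothelial-like cells (64.9 to 108 CPM) did not overlap. It was 3.96-fold (2.67 to 5.91) higher in endothelial-like than in astrocyte-like cells. Jak1 was highest in fibroblast-like cells (376 CPM) after injury and in microglia-like cells (996 CPM) in the uninjured library. Jak2 was highest in OPC-like cells after injury (126 CPM), 1.59-fold (1.24 to 2.03) above ependymal-like cells. Neighbours in the order of its uninjured levels, 26.9 to 75.7 CPM, did not differ. The intervals of uninjured ependymal-like (39.1 to 132 CPM) and astrocyte-like cells (26.8 to 33.1 CPM), which were not neighbours, did not overlap. Il6st ran from 48.7 CPM in OPC-like to 115 CPM in fibroblast-like cells after injury, and from 38.7 CPM in astrocyte-like to 197 CPM in fibroblast-like cells in the uninjured library.

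**Figure D3:**
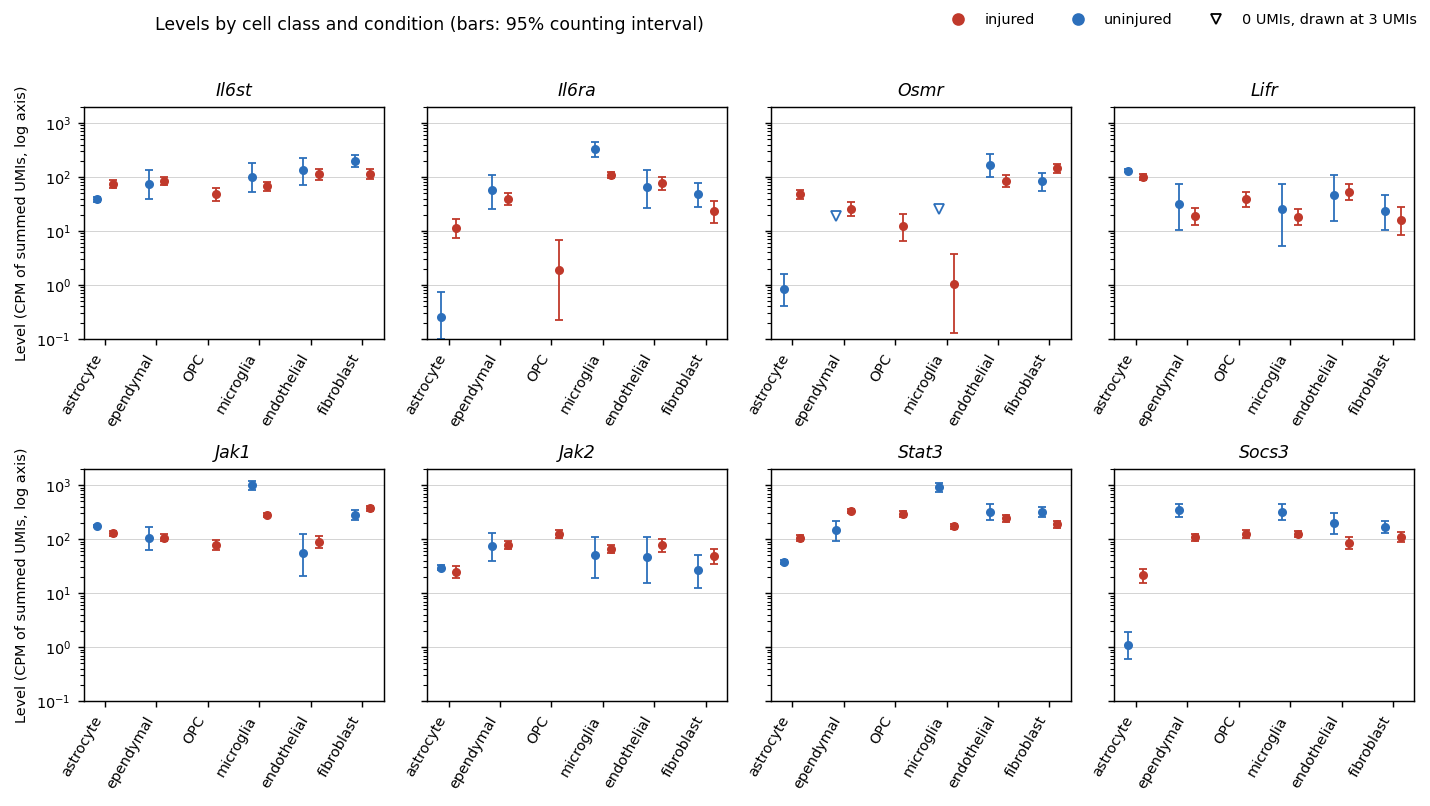
Level (CPM of summed UMIs, log axis) of each gene in 6 cell classes, injured in red and uninjured in blue; bars are 95% counting intervals cut at 0.1 CPM, open triangles mark 0 UMIs drawn at the level of 3 UMIs, and uninjured OPC-like cells are not drawn (16 cells). Osmr, Il6ra and Socs3 are near 0 in uninjured astrocyte-like cells (0.857, 0.257 and 1.11 CPM), and Lifr is highest in astrocyte-like cells of both libraries.

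The ligands of the family were spread over different classes. Of 10 ligand genes, none reached a mean of 20 CPM in astrocyte-like cells, so the values below have no level filter. Osm, encoding oncostatin M, had UMIs only in microglia-like cells among the 6 classes. It had 60 UMIs in 32 of 129 injured microglia-like cells (31.7 CPM, 24.2 to 40.8). The 32 uninjured ones had 2 UMIs in 1 cell (17.0 CPM, 2.06 to 61.5). The ratio was 1.86 with an interval that includes 1 (0.494 to 15.7), so a difference of Osm was not detectable at this depth. Injured astrocyte-like cells had 0 UMIs, where 3 UMIs would have been 1.36 CPM. Il11 was mostly in injured fibroblast-like cells, with 53 UMIs (65.4 CPM) against 2 uninjured (5.98 CPM), a ratio of 10.9 (2.88 to 92.6), and 18 of the 53 came from 1 cell.

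Injured astrocyte-like cells themselves carried ligand transcripts. Clcf1, a ligand of the ciliary neurotrophic factor receptor, had 53 UMIs in 27 injured cells (24.0 CPM, 18.0 to 31.4) and 10 UMIs, 8 of them in 1 cell, in the uninjured class (0.857 CPM), a ratio of 28.0 (14.1 to 61.8). Cntf, ciliary neurotrophic factor, had 26.8 CPM (20.4 to 34.5) against 3.09 CPM (2.16 to 4.27), a ratio of 8.67 (5.63 to 13.5), and 34.8 CPM in injured ependymal-like cells. Lif had 7.26 CPM (16 UMIs) against 0.943 CPM (11 UMIs), a ratio of 7.69 (3.35 to 18.3). Il6 itself had 4 UMIs in 1 injured astrocyte-like cell and 0 in uninjured ones, and 13 UMIs in injured fibroblast-like cells, 7 of them in 1 cell. Ependymal-like cells went the other way, with 4 Il6 UMIs in 3 of 31 uninjured cells (25.2 CPM, 6.88 to 64.6) and 0 in 135 injured ones. Ebi3 was found mainly in microglia-like cells (20.6 CPM in the injured library). Ctf1 and Il27 had at most 23 UMIs in any class.

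Among the other receptors of the family, Cntfr was lower after injury and Il11ra1 higher, both by less than 2-fold. Cntfr, the ciliary neurotrophic factor receptor, had 144 CPM (128 to 160.5) in injured and 247 CPM (238 to 256) in uninjured astrocyte-like cells, a log2 ratio of −0.78 (−0.95 to −0.61). It was therefore lower together with Lifr, with which it acts. Il11ra1, the interleukin-11 receptor, had 72.1 CPM (61.3 to 84.2) and 48.5 CPM (44.6 to 52.7), 0.56 (0.30 to 0.81). Il31ra, which pairs with the oncostatin M receptor, had 14.5 CPM (32 UMIs) and 8.57 CPM (100 UMIs). Il27ra had 1 UMI in the uninjured class and 0 in the injured one.

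Other JAK, STAT and feedback genes mostly stayed within 2-fold in astrocyte-like cells. Of 8 other JAK and STAT genes, 3 passed the level filter, and 1 was lower (Stat5b, 31.7 against 69.3 CPM, log2 ratio −1.10, −1.46 to −0.76) and none higher. Stat2, an interferon effector, had 18.6 and 31.7 CPM. Tyk2, another kinase of gp130 receptors, had 13.6 and 12.9 CPM. Of 15 other feedback genes, 8 passed and 1 was lower, Pias1 (63.9 against 129 CPM, a ratio of 0.495, 0.413 to 0.588), which encodes a protein inhibitor of STATs. The next most abundant genes of this list were within 2-fold, at 62.6 and 73.1 CPM for Pias2, 32.2 and 43.2 CPM for Ptpn2 and 46.3 and 36.7 CPM for Ptpn11. Socs3 had the highest log2 ratio of the feedback genes examined, since with no level filter 1 of the other 15 was at least 2-fold higher (Ptpn6, with 3 and 1 UMIs).

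Of 24 genes listed as known STAT3 targets, 16 passed the level filter in astrocyte-like cells, and 13 were higher and none lower, against 13% and 7.14% of all genes that passed. Of these 13, 8 passed through their injured level alone, with uninjured levels at or under 13.3 CPM, and had to differ. The median log2 ratio of the 16 was 2.61, beside −0.0042 over all genes that passed the filter. Over all 24 targets with no level filter, 17 were at least 2-fold higher and none lower, and the median log2 ratio was 2.45. The share and median over all genes with no level filter are not given here, so these values have no matching background. Gfap, the intermediate filament of astrocytes, was at 63.9 CPM in the uninjured class and at 2778 CPM in the injured one. Vim, vimentin, stood at 1708 CPM after injury and 6.60 CPM without it. Tnfrsf1a, a tumour necrosis factor receptor, had 145 and 46.5 CPM, a log2 ratio of 1.62 (1.42 to 1.82). Hif1a, the hypoxia factor, had 231 and 308 CPM, −0.41 (−0.55 to −0.28). Gfap, Lcn2 and Timp1, all on this list, also led cluster 3. The list was put together with earlier results of these cells known and is not independent of them.

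**Figure D4:**
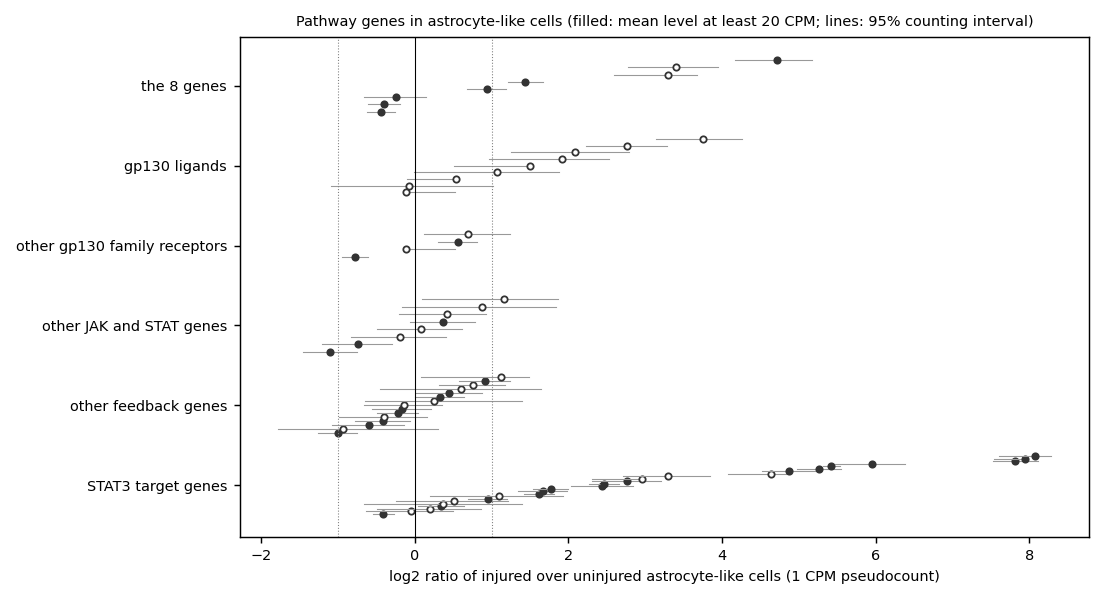
Log2 ratio of injured over uninjured astrocyte-like cells (x axis, 1 CPM added) for the genes of 6 lists (rows) with any UMI; each point is a gene, filled where its mean level was at least 20 CPM, grey lines are 95% counting intervals and dotted lines mark 2-fold. Of the STAT3 target genes 17 lie at or beyond 2-fold to the right, while 1 of the other JAK and STAT genes (Stat5b) and 1 of the other feedback genes (Pias1) lie at or beyond 2-fold to the left.

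In the other classes the target genes did not move as one. In ependymal-like cells 17 of the 24 passed, with 8 higher, among them Vim (7147 against 1931 CPM), and 3 lower (Bcl6, Junb, Fos). Over all genes that passed in this class, 7.02% were higher and 11.7% lower. Of the 8 higher targets, 5 passed through their injured level alone and had to differ. In microglia-like cells 18 passed, with 1 higher (Vim, 691 against 298 CPM) and 8 lower (Cebpd, Bcl6, Junb, Fos, Pim3, Mcl1, Icam1, Irf1), beside the lower Stat3 and Socs3 and the higher immediate early genes of the uninjured class. The shares over all genes that passed there were 11.1% higher and 20.9% lower. In endothelial-like cells 15 passed, with 3 higher (Vim, Lcn2, Hif1a) and none lower, against 7.64% and 13.1% of all genes that passed. In fibroblast-like cells 21 passed, with 6 higher and 3 lower (Serpina3n, Fos, A2m), against 11.0% and 10.4% of all genes that passed. Of these, 3 of the 6 and 1 of the 3 passed through the level of 1 condition alone and had to differ. The lower genes of each class and the genes of the endothelial-like class were named after their values were seen.

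Each gene was compared with 8725 genes by the Pearson correlation of log2(CPM + 1) over the 11 class and condition profiles with at least 20 cells, which share 2 libraries and are not independent. Stat3 was most like Hnrnph2 (0.957), Midn (0.914) and Slbp (0.906). Socs3 was most like the immediate early gene Fos (0.936), then Med28 (0.919) and Morf4l1 (0.918). Il6ra was most like Atf3 (0.972), Sqstm1 (0.970) and Ehbp1l1 (0.936), and Osmr most like Casp12 (0.944), Sike1 (0.939) and Tns2 (0.930). Lifr was most like Plcb1 (0.926), Elovl5 (0.904) and Arhgap26 (0.896), Jak1 like Chsy1 (0.927), Il16 (0.922) and Zfp36l2 (0.914), Jak2 like Tmpo (0.928), Dpy19l1 (0.862) and G3bp2 (0.859), and Il6st like Efnb1 (0.891), Rbms1 (0.882) and Brd2 (0.880). With 11 profiles and so many genes such values describe these libraries only.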

How the data were processed

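The authors deposited 1 matrix of raw UMI counts per condition (Chromium Single Cell 3′ v3.1). The file headers name Cell Ranger 7.1.0, and the submitters' processing notes name version 8.0.1 and mm10. Barcode features were not used. Gene UMIs per cell had to lie above 500 and below 50000, which removed 40 injured cells. After scaling each cell to 10000 counts, cells were clustered with scanpy 1.11.5 (2000 variable genes, 15 principal components, 15 neighbours, Leiden resolution 0.5), giving 12 clusters. A cluster was named by its highest mean marker score above 0.2, if 3 or more of those markers were seen in 10% or more of the cells and its top 10 genes by fold held no larger number of markers of any other class. UMIs were summed per class and condition. Levels have exact Poisson intervals, ratios exact conditional binomial intervals and shares exact Clopper-Pearson intervals. The depth was 8499672 injured and 15543460 uninjured gene UMIs. No doublets were removed: Scrublet called 2 injured and 0 uninjured cells, too few to have worked. Ratio intervals and calls were tested on simulated data with counting error only. Such data cannot show how the intervals do where many UMIs of a gene come from 1 cell. Of the 32285 Ensembl identifiers, 32158 matched GENCODE M21.

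The genes and lists were chosen with earlier results of these data known. The text names the 8 genes, their 3 most similar genes, all ligands and other receptors with a UMI, and the 4 genes with the most astrocyte-like UMIs of each remaining list. Lcn2, Timp1, Fos, Jun, Junb, Egr1, Dusp1, Ier2 and the single genes given with counts of 8 or fewer were named outside this rule after their values were seen. The planned search of protein motifs was not run, since no protein table was used here. Some genes that the rule names are not reported here.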

Additional observations from a re-analysis of the deposited data

Results flagged for a closer look

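Of the 8 genes, 3 were at least 2-fold higher in injured than in uninjured astrocyte-like cells and at least 2-fold lower in another class, with both counting intervals away from 0. The difference between classes was not tested, since each condition had 1 library. Stat3 had a log2 ratio of 1.44 in astrocyte-like cells and −2.41 in microglia-like cells. Il6ra had 3.29 and −1.59 in the same classes. Socs3 had 3.40 in astrocyte-like cells, −1.67 in ependymal-like cells, −1.36 in microglia-like cells and −1.22 in endothelial-like cells. The uninjured classes other than astrocyte-like cells held 26 to 97 cells. Beside these values, Fos was 2077 CPM in uninjured and 682 CPM in injured microglia-like cells, 3047 and 1350 CPM in ependymal-like cells, and 2207 and 2375 CPM in endothelial-like cells. Other immediate early genes were higher in uninjured endothelial-like cells, Junb at 1613 against 1170 CPM, Jun at 4226 against 2537 CPM, Dusp1 at 1528 against 793 CPM and Ier2 at 707.5 against 542 CPM. The part of these genes in the differences was not tested.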

How the results depend on the processing

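Each log2 ratio in astrocyte-like cells was recomputed under 15 alternatives, 3 of them chosen after seeing the data. Of the 120 values 97 stayed inside the counting interval of the reported value and 23 moved outside it. No gene past 2-fold changed sign. With a pseudocount of 10 CPM Osmr was 2.41, Socs3 1.49 and Il6ra 1.06, and with none they were 5.80, 4.26 and 5.46. In cells with an Aldh1l1 UMI, taken from any class and so a different set of cells, Stat3 was 2.07, Socs3 4.22, Jak1 −0.21 and Jak2 0.50. In male cells Stat3 was 1.81 and Socs3 2.70. As means over cells Stat3 was 1.08, Il6st 0.64 and Socs3 2.38. Without cells with a microglia or ependymal marker UMI (added) Stat3 was 1.07, Il6ra 3.76, Lifr −0.81, Socs3 2.67 and Jak2 −0.80. Outside the cluster led by Gfap, Lcn2 and Timp1 (added) Stat3 was 1.81, Lifr 0.10 and Socs3 1.15. That cluster held 46 of the 47 injured Socs3 UMIs, so the Socs3 value outside it rests on too few UMIs to place the gene. The number of the 8 genes higher in astrocyte-like cells was 4 with no level filter instead of 2, by construction of the filter. For the other moves the cause was not tested. Of the 326 recomputed ratios in other classes 18 moved. With 1.5-fold as the limit, 3 of the 8 genes were higher, and the share over all genes at this limit is not given here. No paired analysis was possible because there was 1 library per condition, so no replicate could be left out either. Depth limits the uninjured non-astrocyte classes most, where 3 UMIs are 8.97 to 28.3 CPM.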
